A study of Mus musculus with 24 samples.

Results

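Colon and ileum epithelium of the same 4 KO mice, taken 2 weeks after they were made chimeric, were compared gene by gene. The 8 libraries were those labelled KO early stage, paired by the mouse number in the label (mice 100, 117, 118 and 120), out of 24 libraries in the series. The same difference in 5 wild-type mice (10 libraries) was set beside it. All mice were C57BL/6 aged 8 to 14 weeks, and every sample was sorted as CD45-negative cells positive for a tomato reporter named for Villin, a protein of the epithelial brush border. Of the wild-type mice (WT), 2 were irradiated (mice 59 and 61) and labelled 8 weeks post chimerism, and 3 were neither irradiated nor treated (mice 72, 73 and 75). The other 6 libraries, colon and ileum of KO late mice 49, 50 and 57 (8 weeks), entered the same fit with an effect of their own and so its estimate of the spread, and are not compared here. No WT mouse was sampled at 2 weeks, and 3 of the 5 WT mice were not irradiated. Genotype, irradiation and time after irradiation therefore cannot be told apart in any difference between KO early and WT. The labels say only KO. According to the series title, gut macrophages lacked IL-10Rα and the epithelial response was driven by IL-22, and the design text speaks of macrophages, although all samples are labelled as epithelium.

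The ileum absorbs fat, sugar, peptides and bile acids, and its crypts hold Paneth cells that secrete defensins and lysozyme. The colon absorbs salt and water under a thick mucus layer, and its position along the gut is marked by posterior Hox genes. In healthy mice the antimicrobial lectins Reg3b and Reg3g are made mainly in the small intestine. IL-22, a cytokine of lymphoid cells, acts on the epithelium through STAT3 and is known to induce such lectins.

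Values are normalised reads, that is reads over the size factor of the library, and per-mouse values are given in the order of mice 100, 117, 118 and 120. Differences are log2 colon minus ileum of value + 1, with the standard error of the fit, which understates changes of low genes. A gene was called where the adjusted p by limma was under 0.05.

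The 8 libraries held 11.7 to 18.6 M reads. Epithelial markers were high in all of them, with Epcam at 1336 to 1952 reads per M. The defining markers of other cells were lower, with Ptprc, the leukocyte antigen CD45, at 14.1 to 29.0 reads per M, Cd79a of B cells under 1 read per M and the pancreatic enzyme Cpa1 at 0.378 to 1.67. Summed over whole lists, leukocyte genes came to 27.5 to 42.6 reads per M in colon and 35.2 to 64.9 in ileum, and stromal and endothelial genes to 54.1 to 83.9 and 38.7 to 104. The pancreatic acinar list, which holds Zg16 of the goblet cell list too, summed to 1026 to 3027 and 770.2 to 2571. The ribosomal precursor Rn45s took 10.03, 0.126, 1.04 and 0.163% of colon reads and 29.4, 3.81, 17.0 and 19.3% of ileum reads, so it was higher in ileum in all 4 mice. In WT it ran from 0.105 to 20.0% in colon and from 0.130 to 25.4% in ileum, and there it was higher in colon in mice 59, 61 and 72 and higher in ileum in mice 73 and 75. Its part in the results below was not tested beyond a fit with the Rn45s share as a covariate, added after the data were seen. Il10ra had 21.1, 27.0, 24.1 and 23.0 normalised reads in KO early colon and 24.4, 23.6, 31.2 and 21.9 in ileum, against 4.7 to 20.8 and 1.6 to 12.9 in WT. In chimeras made with blood-forming cells the epithelium keeps the recipient's genotype, so this gene did not check the label here.

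Between colon and ileum of KO early mice 3539 of 19588 genes differed (18.1%), 1956 higher in colon (9.99%) and 1583 lower (8.08%). In these bulk libraries fewer cells of a type and less RNA per cell cannot be told apart. Scaling to total reads raised the median KO early difference by 0.144 and gave 2578 higher and 1293 lower genes. In WT 5471 differed (27.9%), 2602 higher (13.3%) and 2869 lower (14.6%), which became 2723 and 2254 with that scaling. Of the KO early calls, 73.0% were called in WT in the same direction, and 47.2% of the WT calls were called so in KO early. The log2 differences of both groups had Pearson r = 0.78 and Spearman rho = 0.43 across genes, which are no independent replicates. Their sign was opposite in 7999 of the 19588 genes. The correlation of each mouse's difference with the mean difference of the WT mice was 0.75, 0.64, 0.58 and 0.77 for the KO early mice. WT mice set against the other WT mice gave 0.65 (mouse 73) to 0.86 (mouse 59), so mouse 118 stood lowest of all 9. The difference itself differed between KO early and WT for 731 genes (3.73%), 481 in the direction of colon (2.46%) and 250 in the direction of ileum (1.28%). That test is called the interaction below, and a positive value means that colon stood higher relative to ileum in KO early than in WT.

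**Figure D1:**
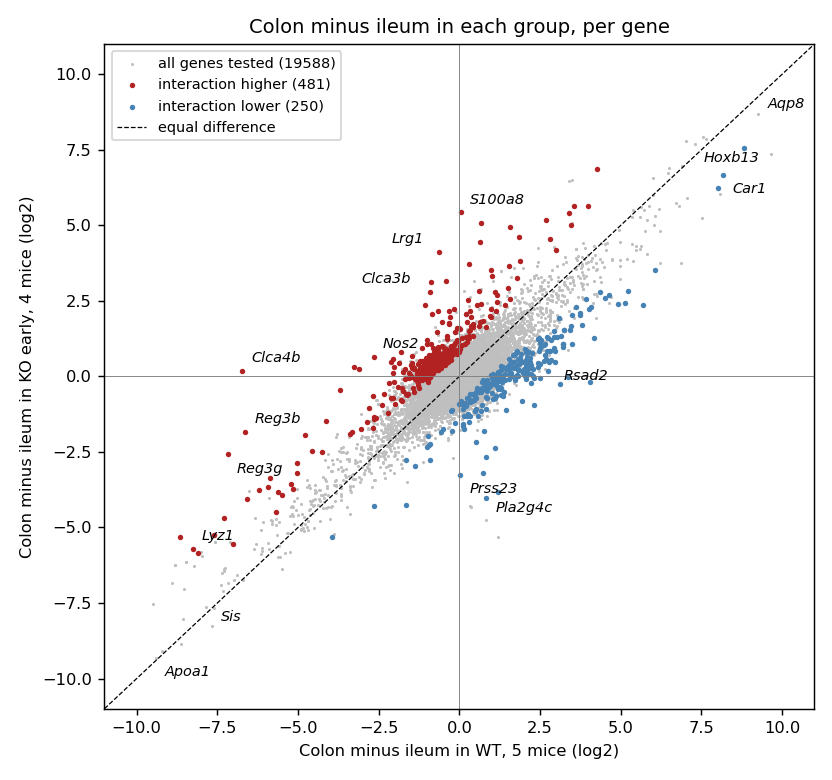
Log2 colon minus ileum of each of 19588 genes in WT (x axis, mean of 5 mice) and in KO early (y axis, mean of 4 mice). Red points are the 481 genes with a positive interaction and blue points the 250 with a negative one. Most genes with large differences lie near the dashed line of equal differences, and Clca4b, Reg3b, Reg3g, Lrg1 and S100a8 lie far above it.

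The interaction count rested on single mice and on the WT group. It was 172, 446, 318, 318 and 264 without mice 117, 118, 59, 61 and 72. With the KO early and WT libraries alone in the fit it was 1153. With the 2 WT irradiated mice alone as reference it was 63, with the 3 non-irradiated ones 261, with the Rn45s share as covariate 218, and with no mouse block 91. All 731 genes kept their direction with the Rn45s covariate, and 197 of them kept the call. Among the 481 genes with a positive interaction, 422 stood on average higher in KO early than in WT in colon and lower in ileum, as did 4086 of all 19588 genes. In 303 of the 481 the distance between the tissues was smaller in KO early than in WT, against 9794 of all genes. Of the 250 with a negative interaction, 214 were lower in KO early colon and higher in KO early ileum than in WT, against 2632 of all genes. The interaction is the colon shift minus the ileum shift, so choosing genes by it favours opposite shifts.

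Transcription factors that mark a position along the gut differed widely between the tissues in KO early. Of 30 regional transcription factors, 12 were higher and 7 lower in KO early colon, against 14 and 9 in WT. Hoxb13, the most posterior gene of its Hox cluster, had 1395, 309, 949 and 788 normalised reads in colon and 4.4, 1.6, 3.0 and 2.1 in ileum (log2 7.70 ± 0.46, adjusted p = 2.35e-10). Foxd2, a forkhead factor, had 159, 117, 157 and 156 in colon and 1 normalised read or none in every ileum library. On the ileal side, Gata5 had 19.4, 10.5, 18.6 and 21.6 in colon and 1720.2, 615, 664 and 808 in ileum (log2 -5.60 ± 0.26), Maf differed by -4.54 ± 0.26 and Gata4 by -2.89 ± 0.22. Colon and ileum did not overlap for any of these 5 genes (9.85% of all genes tested stood higher in colon with no overlap and 9.14% lower), and the WT differences were 7.28 ± 0.42 for Hoxb13 and -5.58 ± 0.23 for Gata5. The interaction called none of the 30 by limma and by edgeR and 2 by DESeq2, against 731, 807 and 1403 of all 19588 genes. Of the 30, 6 had an unadjusted p under 0.05 by limma, as had 3878 of the 19588.

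Genes of ileal absorption held most of the largest differences toward ileum. Of 22 lipid absorption genes, 19 were lower in KO early colon and 1 was higher, with a median of -4.30 against -0.089 over all genes tested. Of 25 genes of sugar and peptide digestion, all 25 were lower (median -4.11). Apoa1, an apolipoprotein of chylomicrons and HDL, had 51.4, 86.2, 110.3 and 27.9 normalised reads in colon and 93509, 24316, 32928 and 33124 in ileum, 641-fold higher in ileum (log2 -9.32 ± 0.47, adjusted p = 2.26e-11). Apoa4 differed by -9.08 ± 0.42, the aminopeptidase Anpep by -8.85 ± 0.39, the disaccharidase Sis by -8.28 ± 0.35 and the amino acid transporter Slc6a19 by -7.68 ± 0.33. Enpp7, which digests sphingomyelin (-8.03 ± 0.31), and Npc1l1, the cholesterol uptake protein (-7.64 ± 0.27), completed the largest differences on this side together with the defensin Defa24. In mouse 100 the ileum stood highest for all of these except Defa24, with Apoa4 at 53201 against 7242 to 13826 in the other mice. That library also had the highest Rn45s share.

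In these absorption lists the interaction called Fabp2, Lct and Slc7a9. Fabp2, a fatty acid binding protein, had 2014, 1204, 618 and 1698 in KO early colon against 3158 to 4809 in WT colon, with no overlap, as was the case for 6.29% of genes tested in either direction (interaction -1.37 ± 0.37, adjusted p = 0.0466). Lct, the lactase of the brush border, was instead low in KO early ileum, at 2270.0, 3659, 2402 and 487 against 4254 to 13203 in WT ileum (interaction 2.34 ± 0.49). Slc7a9, a cystine transporter, was high in KO early colon at 415, 289.5, 647 and 516 against 117 to 146 (interaction 1.68 ± 0.34). All 3 calls were lost with the WT irradiated mice alone. The Fabp2 call was also lost by edgeR (adjusted p = 0.07), with no mouse block, with the Rn45s covariate, with the non-irradiated mice alone and without mouse 100, 117, 118, 59, 61, 72 or 73. That of Lct was lost with no mouse block and that of Slc7a9 with the Rn45s covariate. Of 9 bile acid genes tested, 7 were lower and 1 higher in KO early colon, and the interaction called 1 negative and 1 positive. Slc10a2, the ileal bile acid transporter, had 885, 293, 309 and 885 in colon and 5582, 3596, 2744 and 4668 in ileum (log2 -2.95 ± 0.22), against -1.37 ± 0.20 in WT (interaction -1.59 ± 0.30, adjusted p = 0.00713). Slc27a2, an acyl-CoA synthetase, went the other way, at -1.70 ± 0.16 in KO early and -2.68 ± 0.15 in WT (interaction 0.97 ± 0.22, adjusted p = 0.0215). With no mouse block or the WT irradiated mice alone neither was called, and Slc27a2 was also lost with the Rn45s covariate, the non-irradiated mice alone and without mouse 117, 120, 59 or 72. Fabp6, the ileal bile acid binding protein, differed by -6.26 ± 0.42 in KO early and -8.22 ± 0.38 in WT (interaction adjusted p = 0.0592), and its KO early colon values of 133 to 485 did not overlap the 37.0 to 115 of WT colon.

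Genes of colonic salt and water transport were higher in colon in KO early too. Of 24, 18 were higher and 2 lower, as against 18 and 1 in WT, with medians of 1.42 and 2.41. Aqp8, a water channel, had 8752, 2978, 6958 and 14117 in colon and 53.2, 10.6, 11.1 and 10.4 in ileum (415-fold, log2 8.70 ± 0.40). Atp12a, the colonic proton and potassium pump, had 15052, 8732, 20826 and 30738 and 73.2, 66.8, 68.5 and 68.9 (log2 7.92 ± 0.27). The other genes with the largest differences toward colon were Ly6g (7.86 ± 0.40), Cyp2d34 (7.57 ± 0.20), Mptx1 (7.37 ± 0.55) and Sval1 (6.88 ± 0.40). Ly6g is known as a neutrophil antigen, and its difference in WT was 7.64 ± 0.36. Csf1r and Itgam of myeloid cells were at 1.70 to 5.62 and 8.06 to 23.3 reads per M in the 8 libraries. Which cells gave the Ly6g reads was not tested.

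The interaction called 7 of the 24 genes negative and 1 positive, against 1.28% and 2.46% of all genes tested. In 5 of the 7, Car1, Car4, Slc20a1, Slc37a2 (-2.55 ± 0.51) and Scnn1b (-1.48 ± 0.40), colon stood above ileum in both groups by less in KO early. In the other 2 the distance was larger in KO early: Slc4a4, a bicarbonate cotransporter, differed by -1.85 ± 0.22 in KO early and -0.58 ± 0.20 in WT, and Sgk1, an aldosterone-induced kinase, by -1.31 ± 0.24 and 0.33 ± 0.21 (not called in WT). Car1, a carbonic anhydrase of colonocytes, had 20787, 9565, 8499 and 15132 in KO early colon against 16105 to 29540.0 in WT, and 85.5 to 330.3 in KO early ileum against 68.7 to 101 (interaction -1.52 ± 0.37, adjusted p = 0.0283). Car4, its membrane-bound relative, had 5121, 1331, 1816 and 4397 in KO early ileum against 618 to 1632 in WT ileum (interaction -1.79 ± 0.35). The Car4 interaction was -0.88 and not called with the WT irradiated mice alone, and -2.40 with the non-irradiated mice alone. Slc20a1, a phosphate transporter, had 3813, 964, 1686 and 3869.8 in KO early colon against 7008 to 17067, with no overlap (interaction -1.94 ± 0.28, adjusted p = 0.00155). Aqp4, another water channel, went the other way, with 13332, 15069, 11322 and 5883 in KO early colon against 2641 to 6919 (interaction 1.64 ± 0.38). The 8 calls became 0 with no mouse block, 1 and 5 with the WT irradiated and non-irradiated mice alone, 3 with the Rn45s covariate, 2 without mouse 117, and 5 without mouse 72 or 75.

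Over the mice, KO early colon values of Clca4b, Reg3b and Reg3g overlapped those of the ileum, whereas in WT colon they were lower than in ileum with no overlap, as were 8.89% of genes tested (9.5% were higher so). Clca4b, which belongs to the regulators of calcium-activated chloride channels, had 18655, 26802, 83854 and 49379.7 normalised reads in KO early colon and 49922, 22360.4, 31702 and 36434 in ileum, so the tissues overlapped (log2 0.17 ± 0.35, adjusted p = 0.778). In WT it had 256 to 372 (median 276) in colon and 20342 to 40320.0 (median 33272) in ileum (log2 -6.73 ± 0.31), and the interaction was 6.90 ± 0.47 (adjusted p = 1.88e-07), positive and called under every alternative run. Reg3b had 18402, 73672, 127632 and 54106 in KO early colon and 210203, 121230.0, 214118 and 288262 in ileum (log2 -1.85 ± 0.48), against -6.63 ± 0.43 in WT (interaction 4.78 ± 0.65, adjusted p = 0.000894). The WT colon values of Reg3b were 701 to 3606 (median 929.6), below every KO early colon library. Reg3g had 4191, 22435, 48204 and 12454 in KO early colon and 93648, 47254, 107316 and 153672 in ileum, and 252 to 796 (median 329) in WT colon (interaction 4.59 ± 0.64). Within each KO early mouse Reg3b and Reg3g were still lower in colon than in ileum, and both remained called lower (Reg3g log2 -2.58 ± 0.48, adjusted p = 0.000465), whereas Clca4b was lower in mouse 100 alone. In ileum the values of KO early and WT overlapped for all 3 genes. These families hold close copies, and the sources used here do not say how reads shared by copies were counted.

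**Figure D2:**
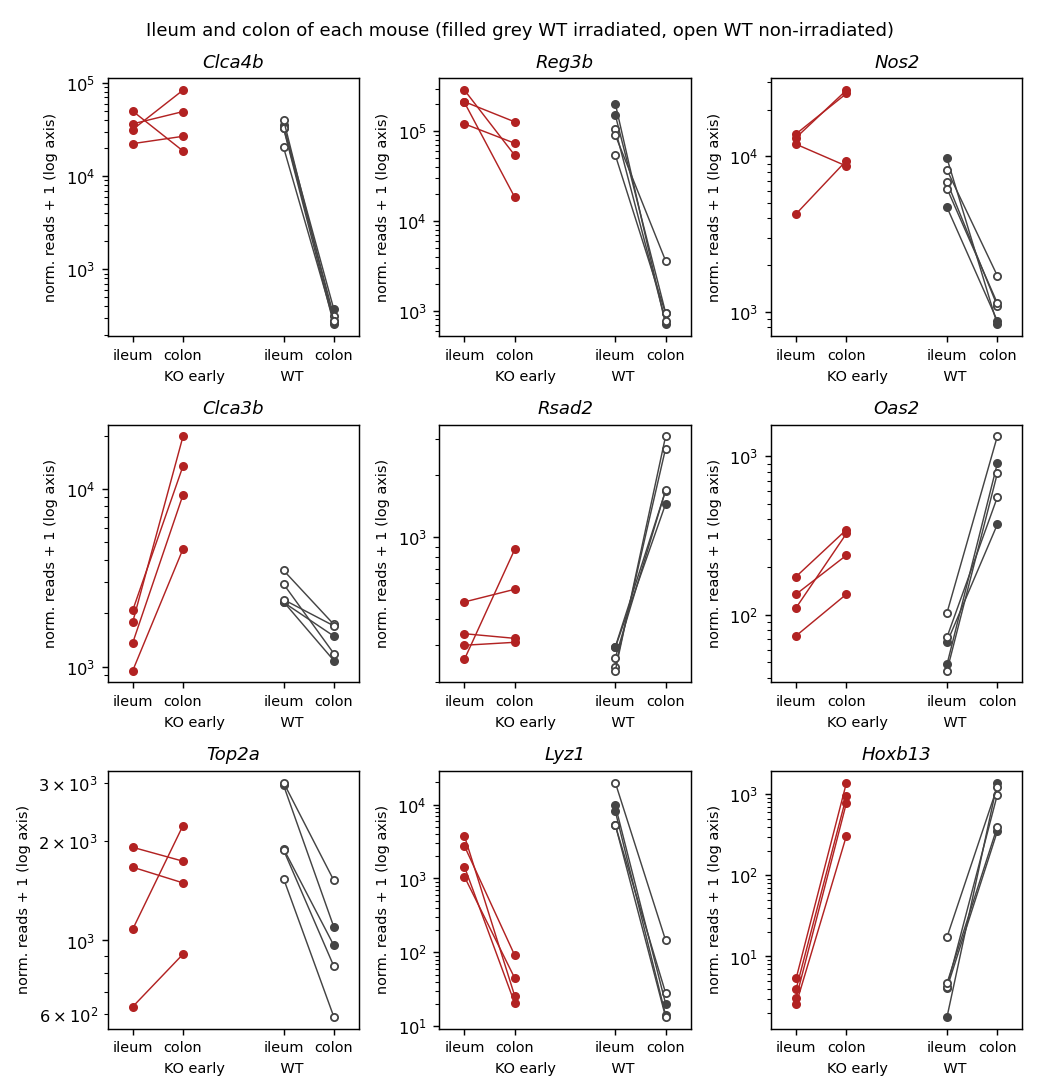
Normalised reads + 1 (log axis) of 9 genes in ileum and colon, with a line for each mouse, KO early in red (4 mice) and WT in grey (5 mice). Clca4b, Reg3b and Nos2 fall from ileum to colon in every WT mouse, whereas for Clca4b and Nos2 colon lies above ileum in 3 of the 4 KO early mice, and Hoxb13 is higher in colon in all 9 mice.

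The Clca genes lie side by side on chromosome 3 in the RefSeq annotation, in the order Clca3a1, Clca3a2, Clca3b, the pseudogene Clca4c-ps, Clca4b, Clca4a, Clca1 and Clca2, and they did not move together. Clca3b had 4597, 9272, 19782 and 13464 in KO early colon and 949, 1362, 1782 and 2077 in ileum (log2 2.80 ± 0.22), while in WT it was lower in colon (-0.91 ± 0.19), with an interaction of 3.71 ± 0.29 (adjusted p = 1.22e-06). Clca3a1 and Clca3a2 turned in the same way, with differences of 2.06 ± 0.26 and 2.17 ± 0.25 in KO early against -0.85 ± 0.23 and -0.67 ± 0.22 in WT (interaction 2.91 ± 0.35 and 2.84 ± 0.34). Clca4a, the neighbour and closest relative by name of Clca4b, had 7757, 7996, 10317 and 23568 in KO early colon and 23921, 22969.5, 18694 and 10392 in ileum, with an interaction of -0.29 ± 0.49 (adjusted p = 0.777). Clca1, a goblet cell product, had an interaction of -1.26 ± 0.52 (adjusted p = 0.179), and Clca2 one of -1.27 ± 0.32 (adjusted p = 0.0353). Clca3a1, Clca3a2, Clca1, Clca2 and the pseudogene were named after their values were seen.

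Of 26 antimicrobial and IL-22 response genes tested, 10 were higher and 6 lower in KO early colon, against 6 and 10 in WT. The interaction called 10 of the 26, all positive, with a median of 1.43 against -0.068 over all genes, of which it called 3.73%. This list, like the others, was chosen with earlier results of these data known, so the count is no independent support. In colon 13 of the 26 were higher in every KO early library than in every WT library (2.10% of all genes tested were), and in ileum none was (4.72%). Nos2, the inducible nitric oxide synthase, had 8672, 9412, 26657 and 25369 in KO early colon and 11971, 4282, 13231 and 13976 in ileum, against 833 to 1712 (median 1096) and 4706 to 9710.5 (median 6867) in WT (interaction 3.30 ± 0.35, adjusted p = 9.61e-05). Steap4, a metalloreductase, had 1252, 724, 2727 and 1836 in colon and 28.8, 35.0, 50.4 and 47.0 in ileum (log2 5.18 ± 0.27), against 2.70 ± 0.24 in WT (interaction 2.48 ± 0.36). Socs3, the feedback inhibitor of STAT3 signals, had 298, 344, 1746 and 838 in KO early colon against 25.3 to 68.4 in WT colon (interaction 3.33 ± 0.66), and its ileum values of 1270.2, 142, 442 and 989 spread widely. Il22ra1, the epithelial IL-22 receptor chain, was lower in colon in both groups (-1.09 ± 0.23 and -0.74 ± 0.20, interaction adjusted p = 0.541). Duox2, an epithelial oxidase, had interaction adjusted p = 0.467. The 10 calls became 6 with no mouse block, 6 with the WT irradiated mice alone, 7 with the Rn45s covariate and 6 without mouse 117. Reg3b, Reg3g, Nos2, Steap4 and Clca4b were called under every alternative run.

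The promoters of 9 of these 10 genes were in the RefSeq table, and the 170 bases before the start were searched on both strands for TTCNNNGAA, the core of STAT binding sites, which reads alike on both. It was found in 3 of the 9 (33.3%) and in 4.70% of all 27025 promoters of that length. Those 3 are shown because their genes carry the colon pattern above, 5′ to 3′ on the gene's strand, build GRCm38.p6, with the match in capitals. They lie at chr6:78370715-78370884 (plus strand), chr5:7960302-7960471 (plus strand) and chr11:117969367-117969536 (minus strand).
Reg3b: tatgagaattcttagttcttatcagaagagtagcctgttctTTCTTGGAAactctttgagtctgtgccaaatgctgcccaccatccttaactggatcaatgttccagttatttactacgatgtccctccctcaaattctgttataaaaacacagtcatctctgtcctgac
Steap4: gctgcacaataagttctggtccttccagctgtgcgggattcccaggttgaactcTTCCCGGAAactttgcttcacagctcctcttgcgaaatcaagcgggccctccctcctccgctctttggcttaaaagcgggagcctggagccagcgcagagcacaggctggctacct
Socs3: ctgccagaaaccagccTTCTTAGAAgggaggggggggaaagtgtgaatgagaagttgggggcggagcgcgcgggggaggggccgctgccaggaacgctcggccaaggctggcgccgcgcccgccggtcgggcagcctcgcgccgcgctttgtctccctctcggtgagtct
A match is a description of these letters and no evidence of binding. The windows of Reg3g, Clca4b, S100a8, Lrg1, Pim1 and Reg1 held no match, which says only that these letters are absent from them.

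Other genes turned toward colon in KO early without a role in that list. Ces2f, a carboxylesterase, had 468, 326, 1317 and 1021 in KO early colon, 17.7, 15.5, 18.1 and 26.1 in ileum and 5.1 to 32.6 in WT colon (interaction 4.40 ± 0.52, adjusted p = 0.000274). Tac1, which encodes substance P and is made by enterochromaffin cells and neurons, had 392, 756, 1642 and 736 in KO early colon against 33.7 to 63.7 in WT colon (interaction 3.99 ± 0.43). It was the only called gene of 20 enteroendocrine genes in the interaction, which called 3.73% of all genes tested. The interaction called none of 8 enteric neuron and glia genes by limma, edgeR or DESeq2. None of these 8 had an unadjusted p under 0.05 by limma, against 3878 of all 19588 genes. Summed, they came to 23.3 to 60.8 reads per M in KO early colon and 23.1 to 53.3 in ileum, against 12.1 to 44.2 and 19.0 to 25.7 in WT. Which cells gave the Tac1 reads was not tested. Pla2g2a, a secreted phospholipase that kills bacteria, had 137, 176, 225 and 173 in KO early colon and 48.8, 141, 198 and 279.7 in ileum, against 20.1 to 35.4 and 128 to 482 in WT (interaction 3.58 ± 0.47). Plat, the tissue plasminogen activator, had 256, 376, 746 and 905 in KO early colon against 29.5 to 68.3 in WT colon (interaction 3.42 ± 0.47). Ceacam10 was low in KO early ileum, at 55.4, 40.7, 111 and 79.3 against 115 to 347 (interaction 2.40 ± 0.36). These 5 genes were called under every alternative run.

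Inflammatory products that act on or mark neutrophil responses were higher in KO early colon than in ileum and varied among the mice. S100a8, a subunit of calprotectin, had 16, 90.7, 3945 and 240.1 in colon and 8.9, 1.6, 2.0 and 4.2 in ileum (log2 5.45 ± 0.86, adjusted p = 9.33e-05), against 0.06 ± 0.77 in WT (interaction 5.40 ± 1.16, adjusted p = 0.0163). Mouse 118 stood far above the other 3, and mouse 100 was within the WT colon range of 0.8 to 28.3. The S100a8 interaction was not called with the Rn45s covariate (adjusted p = 0.0593), with no mouse block, with either WT group alone or without mouse 117. Lrg1, a secreted glycoprotein of acute inflammation, had 103, 92.2, 1836 and 125 in colon and 4.4, 0.8, 30.2 and 80.4 in ileum, again highest in mouse 118, and 0 to 5.1 in WT colon (interaction 4.76 ± 0.85, adjusted p = 0.00573). Of 15 chemokines tested, 6 were higher and 1 lower in KO early colon. Cxcl5 had 46.4, 443, 3078 and 433 in colon and 1.0 to 7.3 in ileum (log2 6.49 ± 0.77), and its interaction did not pass (2.99 ± 1.03, adjusted p = 0.105). The interaction called Cxcl2, with 14.3, 109, 536 and 58.6 in KO early colon against 3.8 to 7.4 in WT (3.83 ± 0.71, adjusted p = 0.00614), and Cxcl3. Both calls were lost with the Rn45s covariate, with no mouse block and with WT irradiated mice alone. Cxcl3 had 0, 30, 127.4 and 15.4 in KO early colon, and its call was also lost with the non-irradiated mice alone. Of the fits that left out 1 mouse, Cxcl3 kept the call in 2 and Cxcl2 in 9. Ccl25, the chemokine of the small intestine, kept its distance (-4.14 ± 0.26 in KO early, -4.20 ± 0.23 in WT). Beside these values, the 12 myeloid and neutrophil markers tested summed to 165 to 312 reads per M in KO early colon and 26.9 to 65.4 in ileum, against 97.7 to 183 and 33.4 to 55.3 in WT. Ly6g alone averaged 182 reads per M in KO early colon and 0.704 in ileum and so made up most of the sum. Of the 12, Ly6g and Cd14 were higher in KO early colon and Itgam was lower, none was at 0 in all KO early libraries, and the part of such cells in the chemokine values was not tested.

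Mucus and defence genes of colon gave a mixed picture. Of 16 goblet cell genes, 9 were higher and none lower in KO early colon (10 and none in WT). The interaction called none of them by limma (3.73% of all genes were called) and by edgeR, and 4 by DESeq2. At an unadjusted p under 0.05 by limma there were 6 of the 16, against 3878 of all 19588 genes. Set tissue by tissue, 7 of the 16 were lower in every KO early ileum library than in every WT one (6.02% of all genes) and 3 were so in colon (4.19%). Muc2, the main gel-forming mucin, had 39516, 19339.6, 38834 and 48701 in colon and 28801, 14555, 37387 and 29362 in ileum and passed the test in neither group (adjusted p = 0.445 and 0.171). Mptx1, a mucosal pentraxin, had 4895, 6781, 179 and 4494 in KO early colon, below the 21738 to 53568 of WT colon, with mouse 118 lowest by far (interaction -2.28 ± 0.74, adjusted p = 0.0879). Ang4, an antimicrobial ribonuclease, was higher in colon than ileum in WT (2.30 ± 0.40) and not in KO early (-0.95 ± 0.44, adjusted p = 0.162), with 429, 829, 39.6 and 211 in KO early colon against 2686 to 8222 in WT colon (interaction -3.26 ± 0.59, adjusted p = 0.00601). Ang4 was again lowest in mouse 118.

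Paneth cell genes stayed ileal, at a smaller distance. Of 20 tested, 15 were lower and 1 higher in KO early colon, with a median of -4.50 against -6.55 in WT. The interaction called 6 positive and 1 negative, against 2.46% and 1.28% of all genes tested. Lyz1, the Paneth cell lysozyme, had 1055, 3763, 2749 and 1439 in KO early ileum against 5231 to 19821 in WT ileum, with no overlap, and 19.5 to 90.1 against 12.4 to 145 in colon (interaction 2.56 ± 0.50, adjusted p = 0.00924). Defa21 had 88.7, 226, 144 and 82.4 in KO early ileum against 494 to 1376 (interaction 3.33 ± 0.56), and Defa17 and Defa22 were likewise below every WT ileum library. These defensins are near-identical copies of each other, so their reads may be split among them. Mmp7, the protease that activates defensins, differed instead in colon, with 19.4, 45.7, 59.8 and 44.0 in KO early against 6.2 to 17.7 in WT (interaction 2.50 ± 0.46). The 7 calls became 0 with no mouse block and 3 with either WT group alone, and were 4 without mouse 118, 59 or 72.

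**Figure D3:**
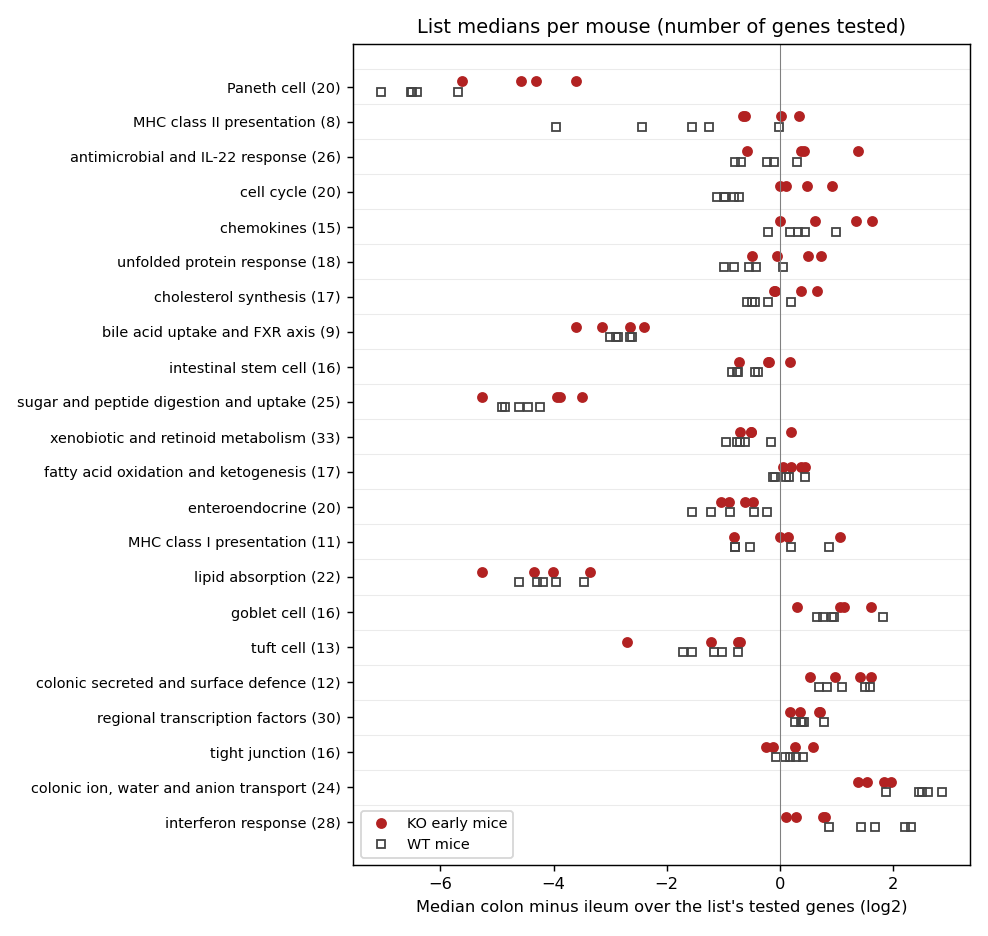
Median log2 colon minus ileum over the tested genes of 22 lists in each mouse, KO early as red circles (4 mice) and WT as grey squares (5 mice), with the number of genes tested in brackets. The cell cycle medians of the 4 KO early mice lie between -0.0043 and 0.92 and those of the 5 WT mice between -1.12 and -0.72, while the lists of absorption, goblet cell and regional transcription factor genes overlap between the groups.

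Dividing-cell genes were lower in colon than in ileum in WT and not in KO early. Of 20 cell cycle genes, 18 were lower in WT colon and 1 higher, whereas in KO early 3 were higher and none lower. The median difference was -0.96 in WT and 0.35 in KO early. The interaction called 14 of the 20, all positive, against 3.73% of all genes tested. Top2a, a topoisomerase of dividing cells, had 908, 2225, 1492 and 1736 in KO early colon and 629.6, 1081, 1664 and 1912 in ileum, against 587 to 1518 (median 965) and 1537 to 2999.7 (median 1893) in WT (interaction 1.50 ± 0.29, adjusted p = 0.00749). Cdk1, the mitotic kinase, had 160.2, 329, 246 and 276 and 82.0, 148, 226 and 274 (interaction 1.60 ± 0.27, adjusted p = 0.00447). Pcna, the replication clamp, was called in both groups in opposite directions, at 0.58 ± 0.18 in KO early and -0.48 ± 0.16 in WT. Of the 20, 1 was lower in every KO early ileum library than in every WT one (6.02% of all genes were), and none was apart in colon (6.29% of all genes). The paired differences of mice 100, 117, 118 and 120 had medians of 0.47, 0.92, 0.10 and -0.0043 over the list, against -1.12 to -0.72 in WT mice. The 14 calls became 0 with no mouse block and with WT irradiated mice alone, 8 with the Rn45s covariate, and 6 without mouse 117.

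In all, 54 genes were called in both groups in opposite directions, 48 of them higher in KO early colon and lower in WT colon. Of the 54, 11 carried symbols of ribosomal proteins (Rpl or Rps). Rpl22 had 763, 653, 590.3 and 699 in KO early colon and 384, 328, 489 and 499.9 in ileum (0.68 ± 0.17 in KO early, -0.42 ± 0.15 in WT), and the elongation factor Eef1a1 gave 0.63 ± 0.20 and -0.64 ± 0.17, and the nucleolar protein Npm1 0.69 ± 0.21 and -0.57 ± 0.19. Among all 83 Rpl and Rps genes tested, 19 were higher and none lower in KO early colon, while in WT none was higher and 33 were lower. The interaction called 22 of the 83, all positive (median 1.06). This family was looked up after the 54 genes were seen, and ribosomal protein genes have many processed copies, so their reads may be split. With the Rn45s covariate 31 of the 54 kept the interaction call, and with no mouse block 11. The 6 genes that were lower in KO early colon and higher in WT colon were Pck1, which makes phosphoenolpyruvate for gluconeogenesis (-1.11 ± 0.29 and 1.45 ± 0.26), Noct, a clock-controlled phosphatase (-1.10 ± 0.18 and 0.52 ± 0.16), Mx2, Bmp8b, Mapre3 and 9630028B13Rik.

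Of 16 stem cell genes, 4 were higher and 6 lower in KO early colon, against 2 and 7 in WT. In ileum 6 of the 16 were lower in every KO early library than in every WT one (6.02% of all genes), and the interaction called 2. Lgr5, the stem cell receptor for R-spondin, was lower in colon in both groups (-0.63 ± 0.17 and -0.96 ± 0.15, interaction adjusted p = 0.426). Olfm4, made by ileal crypts, had 834, 2037, 2119.9 and 1239 in KO early ileum, below the 3182 to 7071 of WT ileum, and 23.7 to 40.4 in colon (interaction 1.47 ± 0.34, adjusted p = 0.0228). Cdca7 was the other called gene of this list (interaction 1.54 ± 0.28).

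Of 28 interferon response genes, 22 were higher and none lower in WT colon (median 1.91), whereas in KO early 11 were higher and 2 lower (median 0.43). The interaction called 12, all negative, against 3.73% of all genes tested. They were Ifit1, Ifit3, Isg15, Oas2, Oas3, Oasl2, Mx1, Mx2, Rsad2, Irf7, Usp18 and Ifi44, which are antiviral effectors and regulators induced by type I and type III interferon. Rsad2, also called viperin, had 559, 323, 309 and 873 in KO early colon and 486, 340.4, 299 and 256 in ileum, against 1448 to 3078 (median 1686) and 225 to 294 (median 260.2) in WT (interaction -2.47 ± 0.34, adjusted p = 0.00093). Every KO early colon value was below every WT colon value, and the ileum values overlapped. Oas2, an antiviral sensor of double-stranded RNA, had 343, 236, 134 and 324 in KO early colon and 173, 134, 72.5 and 109.6 in ileum, against 370.2 to 1337 and 43.2 to 102 (interaction -2.44 ± 0.37). Ifi44 had 252, 218, 135 and 194 in colon and 268, 175, 101 and 179.5 in ileum, against 285 to 568 and 38.8 to 85.9, so it was below WT in colon and above WT in ileum with no overlap in either. Isg15, a ubiquitin-like modifier, had 233, 60.0, 127 and 169 in colon, which overlapped the 140.5 to 860.1 of WT colon (interaction -2.13 ± 0.44, adjusted p = 0.0137). Over the 28 genes, 6 were below and 2 above every WT library in colon (4.19% and 2.10% of all genes tested), and in ileum 5 were above and none below (4.72% and 6.02%).

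For the GTPases of the list, which interferon-γ is known to induce, the interaction called none of 10 (Gbp2, Gbp3, Gbp6, Gbp7, Gbp8, Iigp1, Igtp, Irgm1, Irgm2 and Ifi47). It called 3.73% of all genes tested, so the lack of calls among 10 genes does not set them apart. Gbp2 had 3140.2, 1939, 5302 and 9292 in KO early colon and 734, 201, 307 and 809.8 in ileum (3.25 ± 0.30 in KO early, 3.34 ± 0.27 in WT, interaction adjusted p = 0.924). Iigp1 had 1777, 3204, 3371 and 3875 in KO early colon, all above the 132 to 1229.7 of WT colon, and 509.9, 141, 156 and 890.2 in ileum (3.21 ± 0.42 and 2.85 ± 0.38, interaction 0.36 ± 0.56). Irgm1 gave 1.17 ± 0.25 and 1.10 ± 0.22, and Irgm2 1.20 ± 0.22 and 1.23 ± 0.19. Some genes of the list outside the GTPases were not called either, Ifit2 among them (3.60 ± 0.28 and 3.76 ± 0.25, interaction adjusted p = 0.851). A p that misses the threshold does not show equal differences, and the GTPases were set apart after the values were seen, with no test between them and the other genes. The 12 calls were 6 with no mouse block, 3 with the WT irradiated mice alone, 12 with the non-irradiated mice alone, 8 with the Rn45s covariate and 9 without mouse 117.

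**Figure D4:**
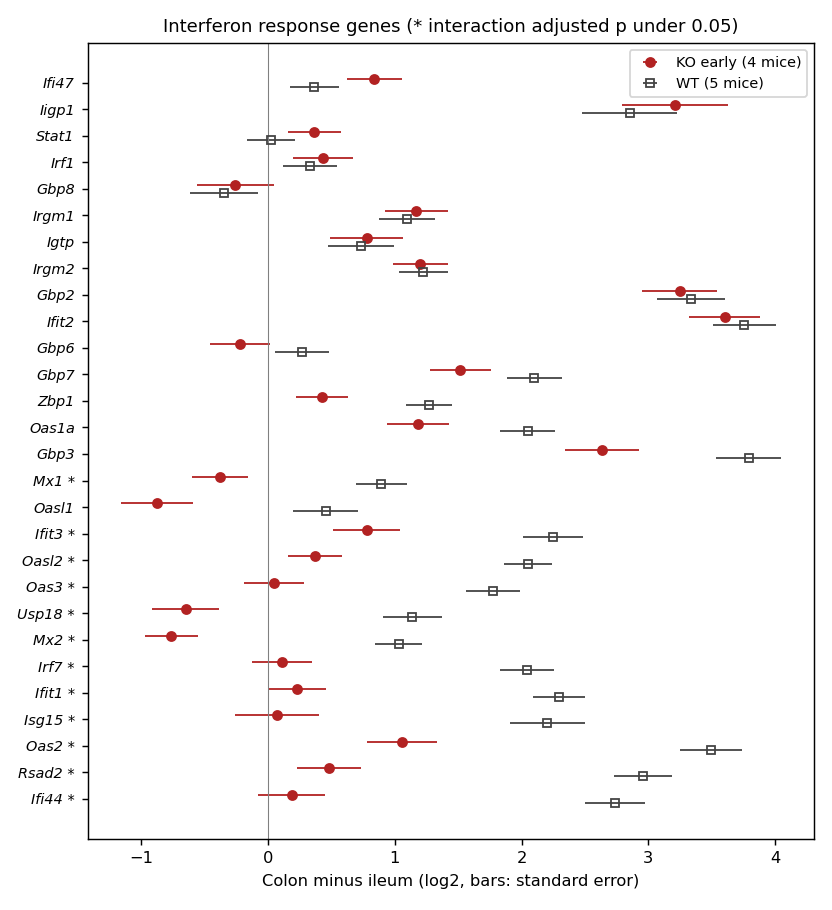
Log2 colon minus ileum with its standard error for 28 interferon response genes, in KO early (red circles, 4 mice) and WT (grey squares, 5 mice), ordered by the interaction. Asterisks mark the 12 genes with an interaction adjusted p under 0.05, whose WT values lie between 0.90 and 3.49 and whose KO early values lie between -0.76 and 1.06.

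The 170 bases before the start were searched on both strands for GAAA, any 2 bases and GAAA, the core of the interferon-stimulated response element. Of the 12 called genes 8 had a promoter in the RefSeq table, and 5 of these held a match (62.5%), as did 7 of the 11 uncalled genes of the list that had one (63.6%) and 1.91% of all 27025 promoters. TTCNNNGAA was in none of the 8 and in 5 of the 11 (45.5%), again against 4.70% of all. Shown are 3 called genes and Gbp2 as an uncalled one, from build GRCm38.p6 with all matches in capitals, overlapping ones merged, at chr4:156200819-156200988 (minus strand), chr12:26456453-26456622 (minus), chr19:34640719-34640888 (plus) and chr3:142620493-142620662 (plus).
Isg15: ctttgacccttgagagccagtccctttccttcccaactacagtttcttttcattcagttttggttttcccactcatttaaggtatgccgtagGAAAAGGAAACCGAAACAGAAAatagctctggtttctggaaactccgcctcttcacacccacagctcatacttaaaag
Rsad2: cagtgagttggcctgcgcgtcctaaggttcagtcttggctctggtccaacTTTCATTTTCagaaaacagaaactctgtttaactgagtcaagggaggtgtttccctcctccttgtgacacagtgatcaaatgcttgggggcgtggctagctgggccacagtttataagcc
Ifit1: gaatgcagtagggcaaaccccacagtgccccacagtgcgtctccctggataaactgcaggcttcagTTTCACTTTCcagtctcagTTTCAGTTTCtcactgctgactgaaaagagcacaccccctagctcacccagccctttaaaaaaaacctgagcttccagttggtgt
Gbp2: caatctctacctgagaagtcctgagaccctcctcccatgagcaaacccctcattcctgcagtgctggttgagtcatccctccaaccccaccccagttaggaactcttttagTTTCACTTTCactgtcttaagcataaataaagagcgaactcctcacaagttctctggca
In Isg15 there were 3 overlapping matches, in Ifit1 2, and in Rsad2 and Gbp2 1 each. Those of Isg15 read on the gene's strand and the others on the opposite one, and a match is again only a description.

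Drug and retinoid metabolism was divided as well. Of 33 genes, 5 were higher and 10 lower in KO early colon (9.99% and 8.08% of all genes tested), against 8 and 16 in WT (13.3% and 14.6%). The interaction called 8 positive and 4 negative (2.46% and 1.28% of all genes). Cyp3a11, a major drug-metabolising cytochrome, had 419, 1418, 375 and 172 in KO early ileum against 1690.1 to 3116 in WT ileum, with no overlap (interaction 2.45 ± 0.45, adjusted p = 0.00601). Cyp4b1 was low in KO early colon, at 118, 43.5, 25.6 and 60.0 against 166 to 544 in WT (interaction -2.59 ± 0.37), and was called under every alternative run. Dhrs9, a retinol dehydrogenase, had 1055, 1690.4, 3986 and 2588 in KO early colon against 530.4 to 767 (interaction 1.19 ± 0.28). Abcb1a, the efflux pump P-glycoprotein, was higher in WT colon (1.70 ± 0.24) and not in KO early (0.29 ± 0.27, adjusted p = 0.504), with an interaction of -1.41 ± 0.36. The 12 calls became 1 with no mouse block and with WT irradiated mice alone, 2 with the Rn45s covariate, 6 with the non-irradiated mice alone 4 without mouse 72, 6 without mouse 59, 7 without mouse 117, 118, 120, 61 or 75, and 8 without mouse 73. Among 16 tight junction genes, Cldn8, a sealing claudin of the colon, had 1328, 1174, 1768 and 876 in colon and 4.4, 13.0, 19.1 and 7.3 in ileum (6.88 ± 0.26, interaction 2.63 ± 0.34, adjusted p = 0.000649), and Cldn2, a pore-forming claudin of crypts, was lower in colon in WT (-1.19 ± 0.16) and not in KO early (0.13 ± 0.18, interaction 1.32 ± 0.24).

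The largest negative interactions included genes that moved with Rn45s. Gphn, a scaffold protein of synapses, had 15559, 1616, 1829 and 1580.0 in KO early colon and 128794, 4759.6, 24370.4 and 33304 in ileum (interaction -3.91 ± 0.96, adjusted p = 0.0305), and mouse 100, with the most Rn45s in both tissues, was highest in both. Cntnap5b had 12198, 892, 1179 and 728 and 66717, 6891, 25472 and 31108 (interaction -5.00 ± 1.34). With the Rn45s share as covariate the interaction adjusted p were 0.157 and 0.139, and 0.163 and 0.0894 for Col6a6 and Il31ra, so none of these 4 was called. All 4 calls were also lost with no mouse block and with the WT irradiated mice alone. With the non-irradiated mice alone those of Gphn, Cntnap5b and Col6a6 were lost too. Leaving out 1 mouse at a time kept the call of Cntnap5b in 2 fits, Col6a6 in 3, Gphn in 4 and Il31ra in 9. Pla2g4c, a phospholipase, was low in ileum of mouse 118 in spite of its Rn45s share. It had 84.3, 174, 62.1 and 101 in KO early colon, below the 221 to 640.5 of WT colon, and 15121, 1802, 88.7 and 2712 in ileum (interaction -4.86 ± 0.87, adjusted p = 0.00571, with the covariate 0.0253). The ileum values of Pla2g4c overlapped those of WT, and its call was lost with no mouse block and with the WT irradiated mice alone. Prss23, a serine protease, had 234, 76.5, 34.2 and 202 in KO early colon and 1776, 1121, 828 and 639.7 in ileum, against 1213 to 1558 and 1011 to 1436 in WT (interaction -3.27 ± 0.42, adjusted p = 0.000649). Methig1 had 45.5, 32.2, 21.7 and 49.5 in KO early colon against 88.4 to 459 (interaction -3.37 ± 0.58). Both Prss23 and Methig1 were called under every alternative run. Efna3, a membrane-bound ligand of Eph receptors, kept a smaller excess in colon (2.42 ± 0.37 in KO early, 5.13 ± 0.33 in WT, interaction -2.71 ± 0.50).

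**Figure D5:**
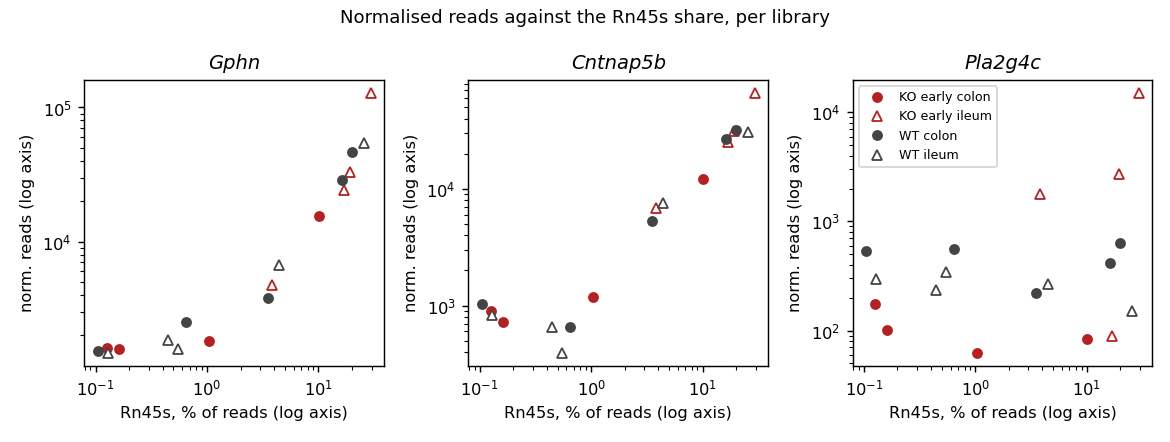
Normalised reads of Gphn, Cntnap5b and Pla2g4c against the share of reads in Rn45s (both log axes) in the 8 KO early libraries (red) and 10 WT libraries (grey), colon as filled circles and ileum as open triangles. Gphn and Cntnap5b are high in the libraries with much Rn45s in both groups and tissues, and Pla2g4c is above the WT ileum range of 152 to 341 in KO early ileum of mice 100, 117 and 120.

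For several lists no interaction passed. The interaction called none of 13 tuft cell, 11 MHC class I, 17 cholesterol synthesis, 17 fatty acid oxidation, 11 leukocyte and 6 B and plasma cell genes by limma. Over all genes tested it called 3.73%, so the lack of calls in lists this short does not set them apart. At an unadjusted p under 0.05 by limma there were 0, 2, 7, 6, 0 and 0 genes, against 3878 of all 19588. By edgeR none was called, and DESeq2 called 1 in MHC class I and 1 in fatty acid oxidation. Of the tuft cell genes, 11 of 13 were lower in KO early colon, among them Trpm5, a taste-type cation channel (-1.95 ± 0.30), and Plcg2 (-1.90 ± 0.22). Of 8 MHC class II genes, 1 was higher and none lower in KO early colon, against 1 and 7 in WT. Its WT medians ranged from -3.95 (mouse 75) to -0.01 (mouse 73), and the interaction called H2-DMb1 (1.84 ± 0.48, adjusted p = 0.0401), with all 8 at an unadjusted p under 0.05. Without mouse 73 the interaction called 6 of the 8, and without mouse 117, 118 or 75, among others, none. Of 12 genes that respond to cell dissociation, 6 were higher in colon in KO early and 6 in WT, with Dusp1 at 1.87 ± 0.29 and 1.97 ± 0.26 (interaction adjusted p = 0.908). Of 14 stromal and endothelial genes, none was called in KO early by limma, and Pecam1 of endothelium had an interaction of -1.27 ± 0.27, a call lost without mouse 117, with no mouse block, with either WT group alone, with the Rn45s covariate and by scaling to total reads.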

How the data were processed

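RNA of sorted epithelium was sequenced. Per the labels' protocols a stranded kit with ribosomal RNA removal was used, while the molecule label gives polyA RNA, and which holds for the Rn45s shares is not known. The authors deposited 1 table of 24421 genes in 24 libraries. The submitters' processing notes name HISAT 0.1.6, HOMER, bcl2fastq and build mm9, and read filters and strand handling are not given in the sources used here. The deposited values are a signal unit, each gene's reads over the library's size factor, and all low values (up to 20 reads) were whole multiples of 1 read within 0.05 normalised reads, so read totals (8.32 to 18.7 M per library) could be recovered.

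Groups came from the labels. The 19588 genes that reached 10 normalised reads in 2 or more libraries entered a trended limma 3.58.1 model (R 4.3.3) of log2(value + 1), in 1 fit of all 24 libraries with 12 mouse blocks and a colon effect for each of 4 arms, two-sided with Benjamini-Hochberg adjustment and a threshold of 0.05. The interaction was the KO early effect minus the mean effect of the 5 WT mice. Colon and ileum of a number come from the same mouse, per the labels, and the correlation of their deviations from group means was 0.39, 0.55, 0.022 and 0.033 in the KO early mice. The standard errors rest on 1 spread per gene, estimated from all 12 mice with KO late included and drawn toward a trend over genes. They do not measure the spread of the KO early or the WT mice alone.

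Members, the 30 gene lists and the rule for named genes were chosen with earlier results of these data known. Named were the 8 largest called and non-overlapping genes in each direction, the 10 largest interactions in each direction with at least 5 reads per M, the 2 strongest called members of each list, list members called in the interaction, and 27 preset genes. Gbp2, Iigp1, Igtp, Irgm1, Irgm2, Gbp3, Gbp6, Gbp7, Gbp8, Ifi47, Rpl22, Eef1a1, Npm1, Pck1, Noct, Bmp8b, Mapre3, Cxcl5, Clca1, Clca2, Clca3a1, Clca3a2 and Clca4c-ps lie outside that rule or were singled out after their values were seen. Alternatives used edgeR 4.0.16 and DESeq2 1.42.0 on the recovered reads, other scalings, filters and pseudocounts, receptor-gene reads as a covariate, single WT groups, and each mouse left out, and the Rn45s share as covariate was chosen after seeing the data. Promoter letters are from RefSeq (GRCm38.p6), matched by symbol, while the table was made on mm9, so no coordinate was carried between builds. Some named items are not reported here.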

Additional observations from a re-analysis of the deposited data

Results flagged for a closer look

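The interaction, the test of whether the difference between colon and ileum itself differed between KO early and WT mice, called 731 genes at an adjusted p under 0.05 by limma. The genes named above that it called are given here with their log2 interaction, positive where colon stood higher relative to ileum in KO early. Among epithelial defence and inflammation genes the values were Clca4b (6.90), Reg3b (4.78), Reg3g (4.59), Reg1 (2.86), S100a8 (5.40), Lrg1 (4.76), Nos2 (3.30), Steap4 (2.48), Socs3 (3.33), Pim1 (1.76), Cxcl2 (3.83), Cxcl3 (3.55), Cd14 (2.30), Pla2g2a (3.58) and Ang4 (-3.26). The Clca neighbours Clca3b (3.71), Clca3a1 (2.91), Clca3a2 (2.84), Clca4c-ps (2.25) and Clca2 (-1.27) and Ceacam10 (2.40) were called as well. Secretory, crypt and proliferation genes comprised Lyz1 (2.56), Mmp7 (2.50), Defa21 (3.33), Defa17 (2.60), Defa22 (2.27), Tac1 (3.99), Olfm4 (1.47), Cdca7 (1.54), Top2a (1.50), Cdk1 (1.60), Pcna (1.06), Rpl22 (1.11), Eef1a1 (1.28) and Npm1 (1.26). Transport and metabolism genes comprised Fabp2 (-1.37), Lct (2.34), Slc7a9 (1.68), Slc10a2 (-1.59), Slc27a2 (0.97), Car1 (-1.52), Car4 (-1.79), Aqp4 (1.64), Slc20a1 (-1.94), Slc37a2 (-2.55), Scnn1b (-1.48), Slc4a4 (-1.27), Sgk1 (-1.64), Ces2f (4.40), Cyp3a11 (2.45), Cyp4b1 (-2.59), Cyp2d34 (-1.26), Dhrs9 (1.19), Abcb1a (-1.41) and Pck1 (-2.56). Interferon response genes comprised Ifit1 (-2.07), Ifit3 (-1.47), Isg15 (-2.13), Oas2 (-2.44), Oas3 (-1.72), Oasl2 (-1.68), Mx1 (-1.27), Mx2 (-1.79), Rsad2 (-2.47), Irf7 (-1.93), Usp18 (-1.79) and Ifi44 (-2.55). Junction, protease and other genes comprised Cldn2 (1.32), Cldn8 (2.63), Plat (3.42), Prss23 (-3.27), Pla2g4c (-4.86), Methig1 (-3.37), Efna3 (-2.71), Noct (-1.62), Bmp8b (-1.91), Mapre3 (-1.14), H2-DMb1 (1.84) and Pecam1 (-1.27). With the Rn45s share as covariate 197 of the 731 genes kept the call. Of the genes above, S100a8, Cxcl2, Cxcl3, Reg1, Pim1, Defa17, Olfm4, Pcna and Cyp2d34 lost it. So did Fabp2, Slc7a9, Slc27a2, Car1, Scnn1b, Slc37a2, Slc4a4, Sgk1 and Pecam1, among others. Cntnap5b (-5.00), Col6a6 (-3.52), Gphn (-3.91) and Il31ra (-3.47) lost it as well.

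In 36 of 246 groups of 4 KO early libraries 1 library lay far from the other 3 by Dixon's criterion, and most of these were ileum of mouse 100 or colon of mouse 118. The criterion flags about 1 of 20 groups of independent, normally distributed values. These were untransformed values of named genes in the same libraries, so the count cannot be set against that rate. Mouse 100 was highest in ileum for Abcb1a (12733), Apoa1 (93509), Apoa4 (53201), Aqp8 (53.2), Car1 (330.3), Ccl25 (7641), Cyp4b1 (2144), Fabp2 (104615), Il22ra1 (4305), Irf7 (2332), Maf (4159), Npc1l1 (18752), Oas3 (1499) and Pck1 (3824). In colon mouse 100 was highest for Ceacam10 (479), Cntnap5b (12198), Col6a6 (1116), Gphn (15559) and Il31ra (297), lowest for Pcna (204), and its Rn45s share of 10.03% stood apart. Mouse 118 was highest in colon for Cxcl5 (3078), Defa17 (2.3), Defa21 (12.4), Defa22 (9.3), Defa24 (24.9), Lrg1 (1836) and S100a8 (3945), and in ileum for Cxcl3 (5.0), Foxd2 (1.0) and Plat (270.0). Mouse 120 was highest in colon for Car4 (26694), Clca4a (23568) and Noct (3924). Mouse 117 was highest in ileum for Defa24 (791) and lowest in colon for Foxd2 (117). The values are normalised reads, and the cause of these deviations was not tested.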

How the results depend on the processing

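The count of genes in KO early was 3539, from 2756 to 3211 without single mice, and that of WT was 5471, from 4301 to 5396. The count of the interaction was 731, and from 172 (without mouse 117) to 857 (without mouse 73), with 446, 318, 318 and 264 without mice 118, 59, 61 and 72. With no replicate block the counts were 2774, 4346 and 91. The labels give both tissues of a number as the same animal, so the paired fit is the main one, and 86 of 105 interaction-called genes tracked across the alternatives lost the call in at least 1 of them, whereas 19 kept it in every one. The interaction count was 1153 with the compared libraries alone, 1403 by DESeq2, 807 by edgeR, 63 and 261 with WT irradiated and non-irradiated mice alone, and 218 with the Rn45s covariate chosen after seeing the data. With receptor-gene reads as covariate it was 1179, and KO early had 5317 calls. The 2 WT irradiated mice alone gave 2789 WT calls, and there Igtp turned from a positive to a negative difference (-0.49). Scaling to total reads without Rn45s gave an interaction count of 540, 407 of them positive. The cause of these changes was not tested, except that smaller reference groups hold fewer mice. Depth of 11.7 to 18.6 M reads limits genes near 10 normalised reads, and with 4 pairs an exact sign-flip test cannot go below p = 0.125.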
